A study of Mus musculus with 6 samples.

Results

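The E2F transcription factors and their dimerization partners were described in alveolar macrophages of Zcchc6+/+ and Zcchc6-/- mice. The members were chosen by gene symbol, E2f1 to E2f8 with the partner genes Tfdp1 and Tfdp2, and all 10 were found among the 25206 genes of the array. The series asked whether loss of Zcchc6, a terminal uridyltransferase that adds uridines to RNA ends, alters the macrophage transcriptome without infection. These cells, which live in the airspaces and clear inhaled particles, were lavaged from the lungs of unchallenged adult mice with cold saline, and their total RNA was hybridized to Affymetrix Mouse Gene ST arrays. There were 3 arrays of Zcchc6+/+ and 3 of Zcchc6-/- macrophages. The Zcchc6-/- allele carried a deletion of floxed exons in all tissues, made with a germline EIIa-cre transgene that was then bred out, and no sorting step after lavage was stated. Replicates are numbered in the labels, but whether each came from its own mouse is not said, and the p-values rest on array-to-array spread alone, part of which may be technical.

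E2F factors bind DNA upstream of genes for S phase and mitosis. E2F1, E2F2 and E2F3 mostly activate transcription, E2F4 and E2F5 mostly repress it together with the retinoblastoma-like pocket proteins p107 and p130, and E2F6 represses through polycomb partners without a pocket protein. These factors bind as dimers with a Dp protein encoded by Tfdp1 or Tfdp2. E2F7 and E2F8, the atypical members, carry tandem DNA-binding domains, bind without Dp and repress E2F targets late in S phase. In resting cells the pocket proteins hold E2F targets silent, and cyclin D and cyclin E kinases release them when a cell enters the cycle. Alveolar macrophages are maintained locally by a low rate of self-renewal.

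The deposited values are log2 expression after Robust Multiarray Average (RMA) normalization, 1 value per gene and array. All 14 alveolar macrophage markers, among them Marco, Siglecf and Fabp4, had a mean above the median gene (4.40). The targeted gene Zcchc6 was at 8.65 to 8.77 in Zcchc6+/+ and at 7.69 to 8.22 in Zcchc6-/- arrays, a log2 fold change of -0.70 (SE 0.15, limma adjusted p = 0.774). Which of its probes lie in the deleted exons was not examined. Zcchc6-/- replicate 1 stood apart. The mean of 13 T cell markers was 7.02 in it, against 4.33 to 4.86 in Zcchc6+/+, and 4.47 and 4.61 in the remaining Zcchc6-/-, arrays. The mean of 6 immature thymocyte markers was 6.79 in it and 3.30 to 3.81 in the other 5 arrays. Xist, from the inactive X chromosome, was low and Ddx3y, from the Y chromosome, was high in Zcchc6+/+ replicate 1 and Zcchc6-/- replicate 2, the reverse of the other 4 arrays, and the labels do not give the sex.

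All 10 members had a mean above the median gene. E2f2, E2f7 and E2f8 were higher in each Zcchc6-/- array than in any Zcchc6+/+ array, by 1.30-, 1.31- and 1.47-fold on average, and the other 7 overlapped between genotypes. In bulk RNA, more cells of a type and more RNA per cell cannot be told apart. No member passed an adjusted p of 0.05 in limma, a linear model of every gene with variances moderated across genes and Benjamini-Hochberg adjustment over all 25206 genes. The share of all genes that passed was 0%. At an unadjusted p under 0.05, 3 of 10 members were higher and 0 lower, where 2.5% of all genes were higher and 2.53% lower. Genotypes did not overlap for 5.03% of all genes in the higher direction and for 5.15% in the lower, against 3 and 0 of the 10 members. An exact permutation test of 3 arrays against 3 cannot give a p below 0.1.

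**Figure D1:**
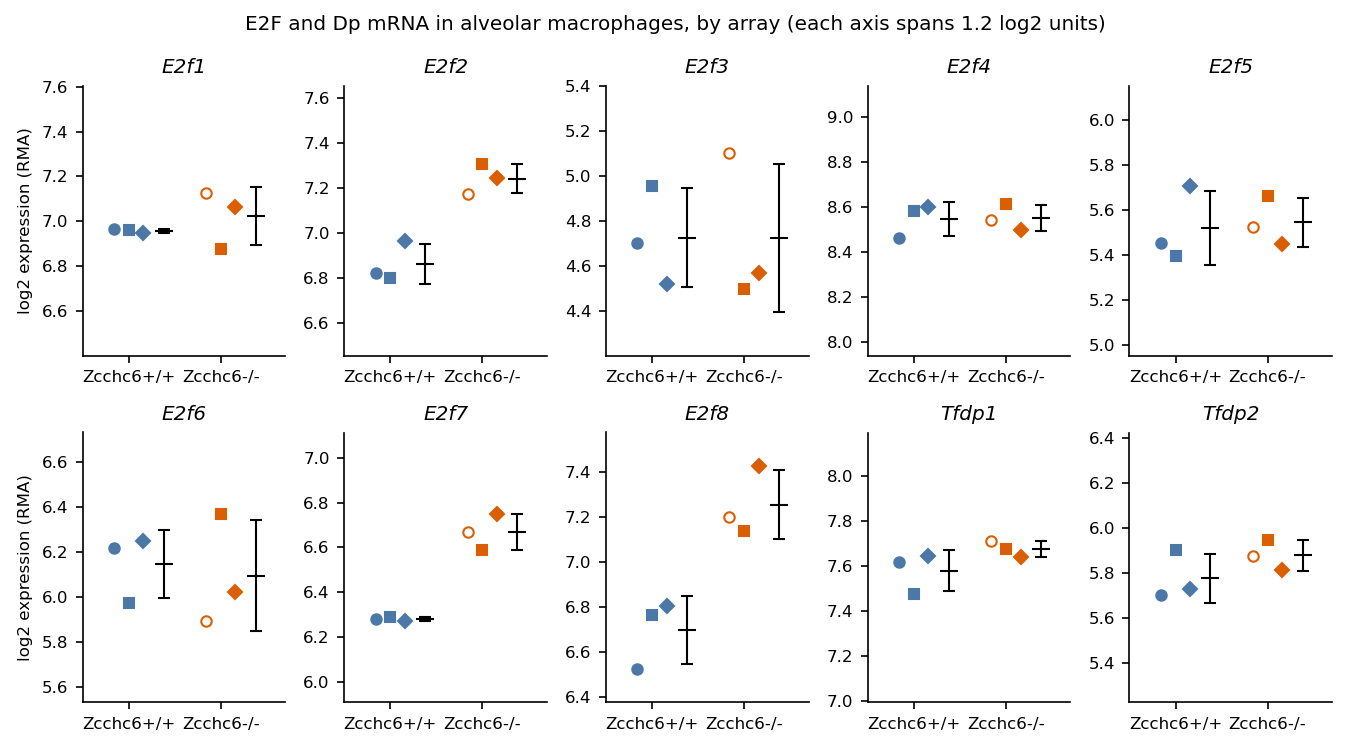
Log2 expression (RMA) of the 10 E2F and Dp genes in each array, in Zcchc6+/+ (blue) and Zcchc6-/- (orange) macrophages; circles, squares and diamonds are replicates 1, 2 and 3, the open circle is Zcchc6-/- replicate 1, and the bars show the mean ± SD of 3 arrays. The groups are separate for E2f2, E2f7 and E2f8, where the lowest Zcchc6-/- array lay 0.21, 0.30 and 0.33 above the highest Zcchc6+/+ array, and overlap for the other 7.

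E2f8, an atypical repressor, had the largest difference between genotypes among the members. It was expressed at 6.52, 6.77 and 6.80 in Zcchc6+/+ macrophages, and 7.20, 7.14 and 7.43 in those lacking Zcchc6. The means were 6.70 ± 0.15 (SD, n = 3) and 7.26 ± 0.15 (SD, n = 3), so the log2 fold change was 0.56 (SE 0.13, 95% interval 0.26 to 0.86, limma adjusted p = 0.774). Zcchc6-/- replicate 3 was the highest array and Zcchc6+/+ replicate 1 the lowest, and the gap between the groups was wider than the range within either of them. E2f7, its paralogue with the same domain layout, was at 6.28, 6.29 and 6.27 in Zcchc6+/+ and at 6.67, 6.59 and 6.75 in Zcchc6-/- macrophages. The Zcchc6+/+ arrays lay within 0.015 of each other, while the Zcchc6-/- arrays spanned 0.16. Its log2 fold change was 0.39 (SE 0.097, 95% interval 0.16 to 0.61, limma adjusted p = 0.821). By unadjusted p, E2f8, E2f7 and E2f2 ranked 94, 138 and 193 among the 25206 genes.

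E2f2, an activator, was the only one of the 3 activator genes whose genotypes did not overlap. The Zcchc6+/+ arrays read 6.82, 6.80 and 6.96, and the Zcchc6-/- arrays 7.17, 7.30 and 7.24. The log2 fold change was 0.38 (SE 0.10, 95% interval 0.14 to 0.62, limma adjusted p = 0.866). The array that held T cell and thymocyte markers, Zcchc6-/- replicate 1, was the lowest of the Zcchc6-/- arrays for E2f2 and lay between the other Zcchc6-/- arrays for E2f7 and E2f8. Without it the log2 fold changes of E2f2, E2f7 and E2f8 were 0.41, 0.39 and 0.59. With each of the 6 arrays left out in turn they ranged from 0.35 to 0.43 for E2f2, from 0.35 to 0.43 for E2f7 and from 0.47 to 0.62 for E2f8.

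The sequences upstream of the 3 genes whose genotypes did not overlap are shown with the letters of 3 cell cycle motifs in capitals. These were the E2F core GCGGGAA or GCGCGAA, the cell cycle homology region TTTGAA or TTCGAA, and the CCAAT box CCAAT, each read on both strands, of which TTCGAA reads the same on either. The sequences are from RefSeq (GRCm38.p6), which listed start sites for 8 of the 10 members, and run 5′ to 3′ over the 250 bases before the start, E2f2 at chr4:136172024-136172273 (plus strand), E2f7 at chr10:110745189-110745438 (plus strand) and E2f8 at chr7:48881597-48881846 (minus strand).
E2f2: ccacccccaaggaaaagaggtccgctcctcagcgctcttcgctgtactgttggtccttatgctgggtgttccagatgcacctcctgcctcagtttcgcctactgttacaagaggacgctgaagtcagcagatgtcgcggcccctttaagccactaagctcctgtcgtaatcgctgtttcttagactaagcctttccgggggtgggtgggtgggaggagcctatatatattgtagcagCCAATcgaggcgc
E2f7: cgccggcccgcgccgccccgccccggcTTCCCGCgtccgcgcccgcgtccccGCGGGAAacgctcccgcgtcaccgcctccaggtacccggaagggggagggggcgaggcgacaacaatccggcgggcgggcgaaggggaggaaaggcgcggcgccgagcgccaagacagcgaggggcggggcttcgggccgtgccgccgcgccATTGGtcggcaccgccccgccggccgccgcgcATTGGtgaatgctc
E2f8: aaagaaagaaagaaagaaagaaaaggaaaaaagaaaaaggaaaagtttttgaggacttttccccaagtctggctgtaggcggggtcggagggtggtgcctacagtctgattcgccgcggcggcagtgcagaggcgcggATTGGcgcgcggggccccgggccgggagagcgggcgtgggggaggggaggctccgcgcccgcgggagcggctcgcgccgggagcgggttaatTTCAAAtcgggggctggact

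Positions are those of a motif's first base, with -1 the last base before the start. The E2f7 stretch held the E2F core at -223, as TTCCCGC, and at -198, and a CCAAT box, as ATTGG, at -46 and -14. The E2f8 stretch held a CCAAT box, as ATTGG, at -112 and a cell cycle homology region, as TTCAAA, at -20. The E2f2 stretch, before the first of its 2 listed starts, held a CCAAT box at -13. The stretch before the other start, at chr4:136180532-136180781 and not shown, lies downstream of the first start and so inside the gene. That stretch held a cell cycle homology region at -31 and CCAAT boxes at -174, -133 and -53. The E2F core letters lay before neither start. The E2F core was also present before starts of E2f3 and Tfdp1, whose expression overlapped between genotypes. Those sites are shown to set beside the 3 genes above, E2f3 at chr13:29986064.0-29986094.0 (minus strand) and Tfdp1 at chr8:13338688.0-13338734.0 (plus strand).
E2f3: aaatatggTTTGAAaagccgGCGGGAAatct
Tfdp1: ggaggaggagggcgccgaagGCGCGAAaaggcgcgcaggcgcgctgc

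The E2F core letters were thus present for 3 of the 8 members with a listed start, and among all 27025 genes with one they were present for 5.7%. The cell cycle homology region was present for 3 of the 8 members and 19.6% of all genes, and the CCAAT box for 4 of the 8 and 37.5% of all genes. E2f2 counted for the cell cycle homology region only through its start inside the gene. RefSeq starts can lie inside a gene. The only stretch searched for E2f1 reads as protein-coding sequence, so the E2f1 promoter may not have been searched. A match of letters is not evidence of binding.

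E2f1 and E2f3, the other activator genes, overlapped between genotypes. E2f1 was at 6.97, 6.96 and 6.95 in Zcchc6+/+ and at 7.12, 6.88 and 7.07 in Zcchc6-/- macrophages. The Zcchc6-/- arrays fell on both sides of a tight Zcchc6+/+ group, and the log2 fold change was 0.065 (95% interval -0.18 to 0.31, adjusted p = 0.998 from limma). E2f3 was at 4.70, 4.96 and 4.52 against 5.10, 4.50 and 4.57 and had the largest SD of the 10 members within each genotype, 0.22 and 0.33. Its highest value was in Zcchc6-/- replicate 1, and without that array its log2 fold change moved from -0.0036 to -0.19. The 95% interval over all arrays, -0.45 to 0.44, includes differences of the size measured for E2f2.

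The repressor genes E2f4, E2f5 and E2f6 also overlapped. E2f4, the main partner of p130 in resting cells, was at 8.46, 8.58 and 8.60 in Zcchc6+/+ and at 8.54, 8.61 and 8.50 in Zcchc6-/- macrophages. Its log2 fold change of 0.0028 had a 95% interval of -0.23 to 0.23, and its 6 arrays spanned 0.15, the least of the 10 members. E2f5, which acts with E2f4, was at 5.46, 5.40 and 5.71 against 5.53, 5.66 and 5.45, a log2 fold change of 0.026 (95% interval -0.26 to 0.31). E2f6 was at 6.22, 5.97 and 6.25 against 5.89, 6.37 and 6.02. Its lowest and its highest array were both Zcchc6-/-, and its log2 fold change was -0.052 (95% interval -0.41 to 0.30). The adjusted p of these 3 genes was 0.998 to 0.999 in limma.

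The Dp genes had small differences within the spread of the arrays. Tfdp1 was at 7.62, 7.48 and 7.65 in Zcchc6+/+ and at 7.71, 7.68 and 7.64 in Zcchc6-/- macrophages, so that the groups overlapped by 0.0067 and only through Zcchc6-/- replicate 3. Tfdp2 was at 5.70, 5.90 and 5.72 against 5.87, 5.95 and 5.81. Their log2 fold changes were 0.097 and 0.10 (95% intervals -0.14 to 0.33 and -0.15 to 0.35, adjusted p = 0.998 for each from limma). Counted by their means, 8 of the 10 members were higher in Zcchc6-/- macrophages, where 48.2% of all genes were. The median log2 fold change of the members was 0.081, against -0.0063 over all genes. The count of 8 was 6 without Zcchc6+/+ replicate 1, since several members had differences near 0.

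**Figure D2:**
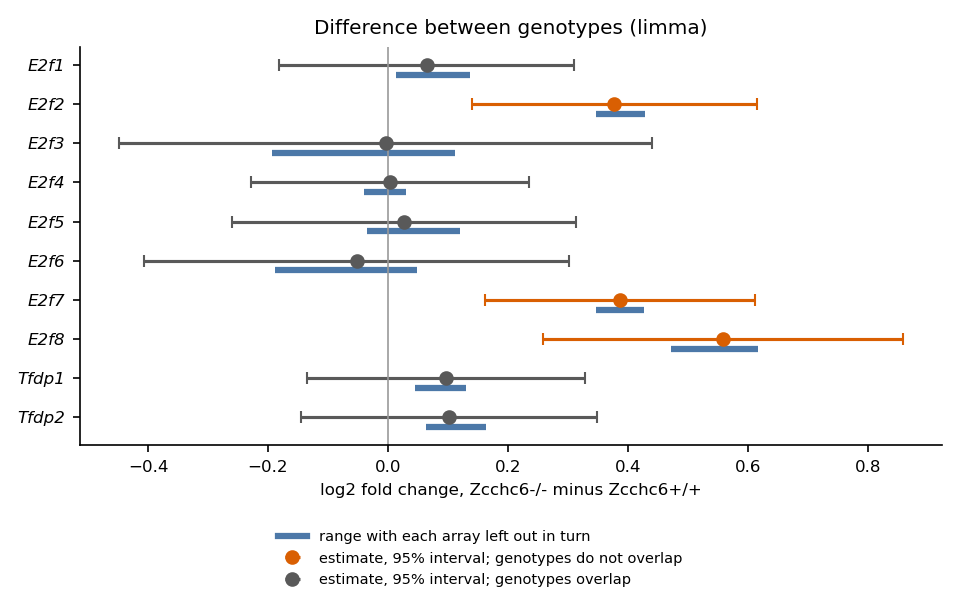
Log2 fold change of each member, Zcchc6-/- minus Zcchc6+/+, from limma, with its 95% interval (points and thin bars, n = 3 arrays per genotype) and the range of the estimate with each array left out in turn (thick bars). The intervals of E2f2, E2f7 and E2f8 lie above 0 before adjustment for the 25206 genes tested, and those of the other 7 members span 0.

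Genes that act above E2F or with it, some of them also its targets, were examined next. Among the pocket proteins and the MuvB core, the complex that joins pocket proteins to E2F4 in resting cells and B-Myb or FoxM1 in dividing ones, 9 of 10 had a higher mean, with a median of 0.11, and 0 passed over all genes. Foxm1, an activator of mitotic genes, was at 6.20, 6.33 and 6.71 in Zcchc6+/+ and at 7.01, 6.82 and 6.89 in Zcchc6-/- macrophages, without overlap (log2 fold change 0.50, SE 0.15, limma adjusted p = 0.902). Rbl1, which encodes p107 and is itself an E2F target, had 0.23 and Mybl2, which encodes B-Myb, had 0.24, while Lin37 had the lowest value of the list, -0.099. The retinoblastoma gene Rb1 was at 9.25 to 9.34 and 9.30 to 9.44, with overlap. In this list 3 of the 10 genes, Foxm1 and Rbl1 among them, did not overlap, in the higher direction, against 5.03% of all genes.

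Of 12 cyclins, kinases and turnover factors of the G1 phase, 9 had a higher mean, with a median of 0.14, and 0 passed. Ccne2 (cyclin E2), an E2F target that drives entry into S phase, was at 5.82, 5.92 and 6.08 against 6.34, 6.50 and 6.35, with a log2 fold change of 0.46 (SE 0.11, limma adjusted p = 0.813). Ccnf, whose product cyclin F marks E2F proteins for degradation, had 0.49, and Skp2, the ubiquitin ligase subunit that clears p27, had 0.20. Genotypes did not overlap, in the higher direction, for 4 of the 12 genes, Ccne2, Ccnf, Skp2 and Fzr1, against 5.03% of all genes. The cyclin D kinase gene Cdk6 had the lowest value, -0.094. Of the 7 CDK inhibitor genes, 6 had a higher mean with a median of 0.092, from -0.25 for Cdkn2b (p15) to 0.31 for Cdkn2c (p18), and Cdkn2d (p19) had 0.28. These 3 overlapped between genotypes. Only 1 of the 7, Cdkn1b (p27), did not overlap, in the higher direction, and none of the 7 had an unadjusted p under 0.05.

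The targets of E2F were examined as well. All 38 listed targets of the G1/S transition averaged higher in Zcchc6-/- than in Zcchc6+/+ macrophages, and their median log2 fold change was 0.30. Of these, 21 did not overlap in the higher direction, 19 had an unadjusted p under 0.05 and 0 passed over all genes, where the shares of all genes were 5.03%, 2.5% and 0%. Brca1, of homologous recombination, was at 5.24, 5.36 and 5.33 against 5.97, 5.76 and 5.88 (log2 fold change 0.56, SE 0.10, limma adjusted p = 0.681). Cdca7, a chromatin factor induced in S phase, had the highest value at 0.76 (SE 0.15, limma adjusted p = 0.705), the leading-strand polymerase gene Pole had 0.51 and Gins2 the lowest at 0.094. E2F core letters lay before a start of 13 of the 30 targets with one listed, or 43.3%, against the 5.7% of all genes.

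All 18 mitotic targets of MuvB also had a higher mean, with a median of 0.50. Of these, 17 did not overlap and 15 had an unadjusted p under 0.05, against the same 5.03% and 2.5% of all genes, and 0 passed. Nusap1, a spindle microtubule protein, had 0.65 (SE 0.11), and the kinetochore genes Ndc80 and Cenpe had 0.64 and 0.57 (limma adjusted p = 0.610 for each of these 3). The lowest was Aurkb at 0.23. The cell cycle homology region lay before a start of 7 of 16 of these genes, or 43.8%, against 19.6% of all genes. The E2F core lay before 1, or 6.2%, against 5.7% of all genes. The CCAAT box lay before a start of 13 of these 16 genes and of 22 of the 30 G1/S targets, against 37.5% of all genes. Both target lists were written with the cell cycle enrichment of these arrays known, so their direction is not independent evidence.

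**Figure D3:**
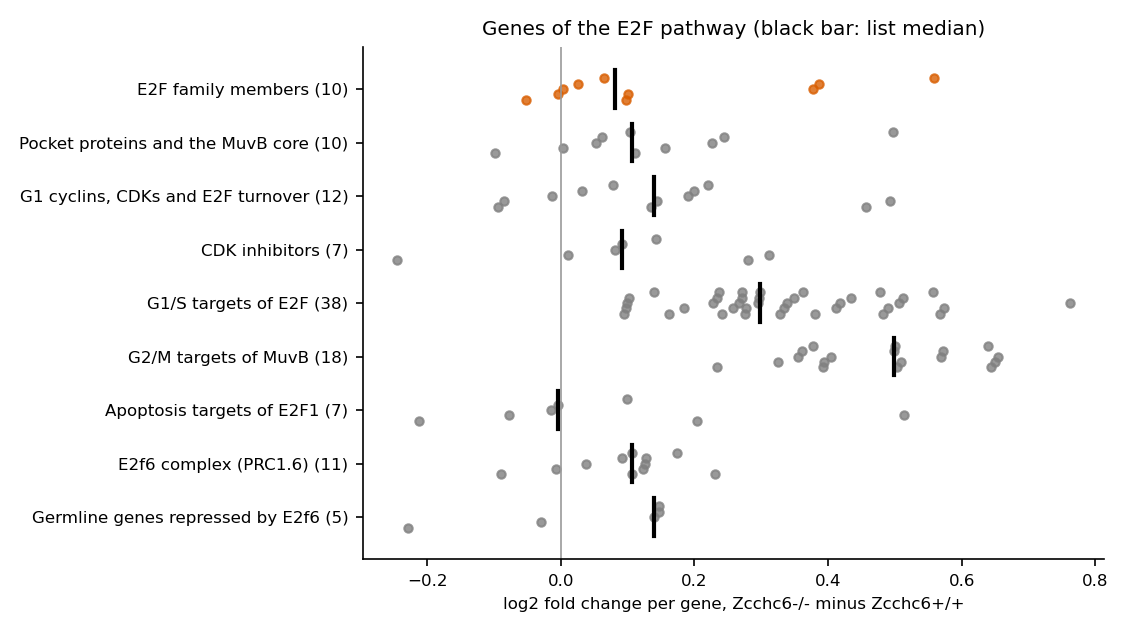
Log2 fold change of each measured gene, Zcchc6-/- minus Zcchc6+/+, in the E2F family (orange) and in lists of genes that act with it (grey), with the number measured in brackets and the list median as a black bar. All points of the G1/S and G2/M target lists lie above 0, with medians of 0.30 and 0.50, and the E2F family spans -0.052 to 0.56.

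Targets of other E2F functions did not all lie on 1 side. Of 7 apoptosis genes that E2F1 can induce, 3 had a higher mean and the median was -0.0040. Trp73, which encodes p73, had -0.21 with overlap. Apaf1, of the apoptosome, had 0.20 with overlap. The highest value of the list was 0.51, and 1 of the 7 genes did not overlap, in the higher direction, against 5.03% of all genes. Of 11 measured genes of the polycomb complex that contains E2f6, 9 had a higher mean with a median of 0.11, from -0.090 for Max to 0.23 for Pcgf6. Pcgf6 was the only 1 of the 11 that did not overlap, in the higher direction. L3mbtl2 and Mga, further subunits, had 0.17 and 0.13. Among 5 germline genes that E2f6 keeps silent, Stag3 and Slc25a31 had 0.15 each and Tuba3a -0.23, and 4 of the 5 had a mean at or below the median gene. None of these genes passed over all genes, and the median of the apoptosis genes ranged from -0.074 to 0.16 with an array left out.

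E2f4 and E2f5 also serve a program of multiple cilia in airway epithelium, and its regulators were examined as a sign of other cells in the lavage. Of 6 such genes 4 had a higher mean. Myb stood out, with 8.54 in Zcchc6-/- replicate 1 and 4.05 to 4.89 in the other 5 arrays, and its log2 fold change of 1.03 was -0.38 without that array. Foxj1, a master regulator of motile cilia, and Ccno had 0.19 and 0.20, and Cdc20b had -0.31, all with overlap. Markers of airway epithelium had list means of 5.39 to 6.23 in Zcchc6+/+ and 5.81 to 6.55 in Zcchc6-/- arrays. All 8 had a higher mean in Zcchc6-/- arrays, with a median of 0.42 and the highest value for the secretory gene Bpifa1 (1.11), and all 8 overlapped.

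Other marker lists were set beside E2f2, E2f7 and E2f8 because lavage fluid holds more than 1 cell type. All 13 T cell markers and all 6 thymocyte markers had a higher mean in Zcchc6-/- arrays, with medians of 0.76 and 0.94, and without Zcchc6-/- replicate 1 the medians were -0.10 and -0.35. Rag1 was at 7.89 and Cd3e at 8.03 in that array, against at most 4.25 and 5.14 in any other. Markers of neutrophils had list means of 4.01 to 4.09 in Zcchc6+/+ and 4.21 to 4.50 in Zcchc6-/- arrays, with 5 of 8 genes higher and a median of 0.18. Of these, Cxcr2 (1.09), Lcn2 (0.70) and Csf3r (0.63) had the highest log2 fold changes and Retnlg (-0.28), S100a8 (-0.24) and Camp (-0.035) the lowest, and only Cxcr2 and Lcn2 did not overlap. Cxcr2, Lcn2 and Csf3r were also the only 3 of the 8 neutrophil markers with a mean above the median gene (4.40). The alveolar macrophage list was at 10.90 to 10.94 and 10.70 to 10.89, with 11 of 14 genes lower. Genotypes did not overlap for 5 of the 14 in the lower direction and 1 in the higher, against 5.15% and 5.03% of all genes. Fabp4 had the lowest log2 fold change of this list, -1.17, and Marco the highest, 0.43. Levels of B cell, monocyte, dendritic cell, alveolar epithelial and erythroid markers overlapped between genotypes. The part of neutrophils, of T lineage and airway cells and of the macrophage marker levels in the E2f2, E2f7 and E2f8 values was not tested.

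**Figure D4:**
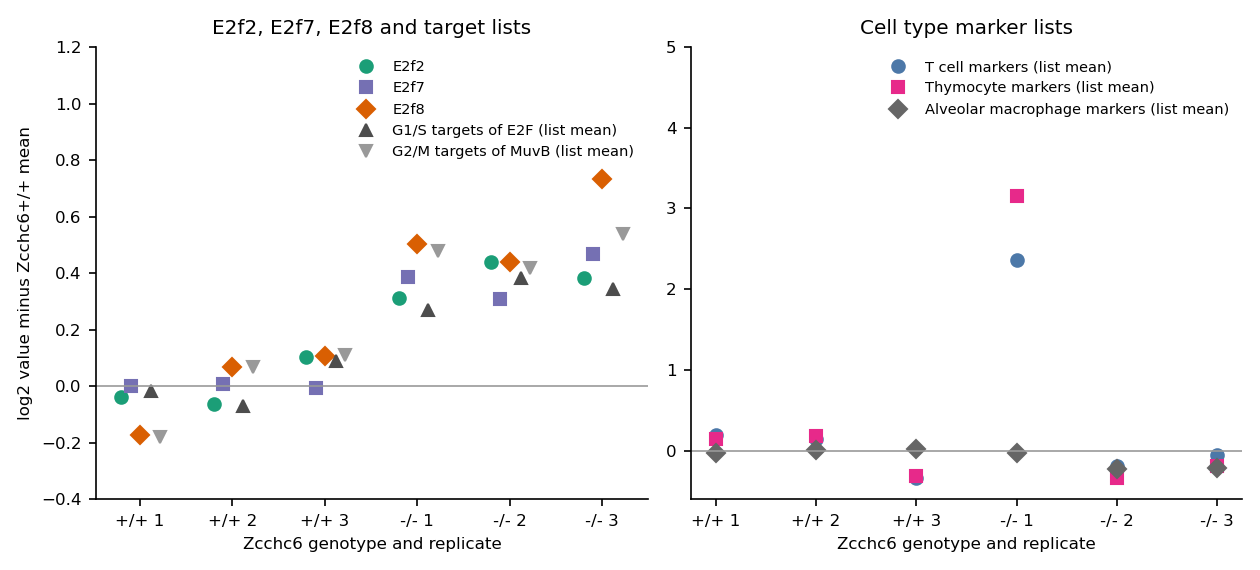
Left, log2 value of E2f2, E2f7 and E2f8 in each array minus the Zcchc6+/+ mean, beside the mean of the G1/S and G2/M target lists; right, the mean of T cell, thymocyte and alveolar macrophage markers on the same kind of scale. The 3 Zcchc6-/- arrays lie above the Zcchc6+/+ arrays on the left, while on the right only Zcchc6-/- replicate 1 is raised, by 2.36 for T cell and 3.15 for thymocyte markers.

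The genes most like E2f7, E2f8 and E2f1 over the 6 arrays were taken from 12069 named genes above the median, by Pearson correlation. For E2f7 these were Zfp276, Tsku, Mki67, Rgl1 and Tmpo (r = 0.993 to 0.982). Mki67, which encodes the proliferation antigen Ki-67, was at 8.81, 8.82 and 8.84 without the deletion and at 9.39, 9.15 and 9.42 with it. Among the Zcchc6-/- arrays, replicate 2 was lowest and replicate 3 highest for Mki67 as for E2f7. For E2f8 they were the Holliday junction resolvase gene Gen1, Ankrd54, the E-cadherin gene Cdh1, Armc6 and Gm10052 (r = 0.991 to 0.982). For E2f1 they included Ppid, Cep295, Mcph1 and Ubr1 (r = 0.992 to 0.985), which overlapped between genotypes like E2f1 itself. With 6 arrays in 2 groups and many candidates, the values of r are given as a description only.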

How the data were processed

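Total RNA of alveolar macrophages was hybridized to Affymetrix Mouse Gene ST arrays, 3 per genotype. The authors deposited 1 log2 value per Entrez gene and array, made with RMA in affy 1.36.1 (R 2.15.1) and a Brainarray Entrez Gene mapping, with a genome build not given in the sources used here. RMA corrects background, brings the arrays to a shared distribution and summarizes the probes of a gene, so a shift of most genes is removed, differences near the floor are understated, and probe detail, detection calls and splice forms are not held.

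Gene numbers were named with the platform annotation and RefSeq (GRCm38.p6), giving 23740 of 25206 genes a symbol. The genotypes were compared in limma 3.58.1 (R 4.3.3, lmFit and eBayes, 4 residual and 3.47 prior degrees of freedom, no covariates, no filter), with Benjamini-Hochberg adjustment over all genes. The procedure was tested on simulated data first. The members and the 19 gene lists (9 of the pathway, 10 of cell markers) were chosen with earlier results of these data known. Genes named are the members, Zcchc6, the 3 genes of each pathway list with the smallest p, its highest and lowest fold change, and the 5 genes most correlated with E2f1, E2f7 and E2f8. Rb1, Fzr1, Cdkn1b and the markers given with values were named outside this rule after their values were seen. Some genes that this rule selects are not reported here. Cbx3 and 2 globin genes of the lists were not matched. Alternatives were trended and robust variances, array weights, a filter at the median, a second quantile normalization, median centring, a replicate block, Xist as a covariate, a threshold of 0.25 and leaving out each array. Promoter motifs were chosen after the values were seen.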

Additional observations from a re-analysis of the deposited data

How the results depend on the processing

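No member passed an adjusted p of 0.05 under any alternative, or 0.25 in the main comparison, and the smallest adjusted p was 0.383, for E2f8 with array weights. Of 140 member estimates under alternatives, 129 kept their direction and 11 were of the opposite sign, all of them for E2f3, E2f4, E2f5 or E2f6. E2f3 turned to 0.013 with array medians centred and E2f4 to -0.011 with array weights. With each array left out in turn, E2f3 ranged from -0.19 to 0.11, E2f4 from -0.041 to 0.029, E2f5 from -0.034 to 0.12 and E2f6 from -0.19 to 0.048. E2f8 was 0.47 to 0.64 over all alternatives, and the medians of the G1/S and G2/M targets were 0.26 to 0.37 and 0.40 to 0.56 with an array left out. Whether the replicate numbers pair the arrays is not said in the labels. Deviations of same-numbered arrays from their genotype means correlated at 0.090, -0.23 and 0.046. With 3 arrays per genotype these values cannot settle it. With the replicate block the E2f8 log2 fold change was 0.56 with an adjusted p of 1.00, and the block changed no call. With Xist as a covariate it was 0.56 with an adjusted p of 0.766. The number of arrays limits the precision, and the upper bounds of the 95% intervals of the 7 members that overlapped lay between 0.23 and 0.44.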
